A study of Mus musculus with 24 samples.

Results

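*Lgmn*, *Tnfrsf12a*, *Eda2r*, *Dll1*, *Crim1* and *Igsf3*, the genes of proteins that the study measured in plasma, were followed in the hypothalamus of overfed mice. They were picked by symbol as the genes of those proteins, with earlier results of these brain data already known, and the plasma measurements were not used here. All 6 were found among 55471 counted genes, and all 6 were among the 18992 genes that passed the filter on low counts and were tested. None of the 6 mRNAs passed the test in overfed against control mice, on either day. On d14, *Lgmn* and *Tnfrsf12a* were at 0.892 and 0.698 of the control level and *Crim1* and *Igsf3* at 1.14 and 1.16 times it, all with adjusted p-values above 0.05 by the edgeR quasi-likelihood test. On d14+3, those 4 genes were between 0.992 and 1.04 times the control level.

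The mice were chow-fed C57BL6/J males, 18 weeks old, and each library holds the hypothalamus of 1 mouse. ExpOF mice received a sucrose-enriched liquid diet by intragastric infusion, raised stepwise to 150% of their energy need, and controls were infused with water. The groups were ExpOF d14 and Control d14, killed on day 14 at the end of overfeeding, and ExpOF d14+3 and Control d14+3, killed on day 17 after 3 days in which all of these mice received water. There were 6 mice per group, all with free access to chow. Control d14 replicate 4 was left out, which leaves 5 mice in that group and 23 libraries. The authors removed a Control d14 mouse for poor RNA quality, and which library it was had to be matched through their mean expression values.

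Legumain (*Lgmn*) is an asparaginyl endopeptidase of the endolysosome that matures cathepsins and is held in check by cystatins. *Tnfrsf12a* encodes Fn14, the small receptor of the cytokine TWEAK (*Tnfsf12*), and *Eda2r* encodes the receptor of the A2 form of ectodysplasin. Both belong to the tumor necrosis factor receptor superfamily and signal through TRAF adaptors to NF-kB, and *Eda2r* is also known as a target gene of p53. *Dll1* encodes a transmembrane ligand of Notch receptors that maintains progenitor cells in the brain. *Crim1* encodes a transmembrane protein with cysteine-rich repeats that binds BMPs, and *Igsf3* an immunoglobulin superfamily protein of the EWI group, whose members associate with tetraspanins. Several of these proteins can be shed or secreted, so an mRNA level in brain tissue and a protein level in plasma are separate quantities.

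All 6 genes are annotated as protein-coding in GENCODE. On mm10, *Lgmn* lies on chromosome 12 at 102394084 to 102439813 (minus strand), *Tnfrsf12a* on chromosome 17 at 23675445 to 23677427 (minus strand) and *Eda2r* on chromosome X at 97333840 to 97377216 (minus strand). *Dll1* lies on chromosome 17 at 15367354 to 15376872 (minus strand), *Crim1* on chromosome 17 at 78200248 to 78376592 (plus strand) and *Igsf3* on chromosome 3 at 101377083 to 101463059 (plus strand). The span of *Crim1* overlaps that of *Fez2* on the opposite strand, and that of *Gm25069*. *Fez2* held 402 to 1951 counts per library, so without a stated strand setting of the counting a share of the *Crim1* counts could belong to it. No gene overlaps *Lgmn*, *Tnfrsf12a*, *Eda2r* or *Dll1*, and the 3 genes that overlap *Igsf3* had at most 1 count in any library.

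The promoters of the 4 genes with the lowest p-values on d14 are shown. Across libraries, *Lgmn* and *Tnfrsf12a* varied together (Pearson r = 0.72, n = 23 libraries), as did *Crim1* and *Igsf3* (r = 0.63), while *Lgmn* and *Igsf3* varied inversely (r = -0.80). All 4 also followed how strongly long genes were represented in a library (r = -0.89 for *Lgmn*, -0.68 for *Tnfrsf12a*, 0.88 for *Crim1* and 0.83 for *Igsf3*, described below). The pairs cannot be told apart from that shared trend, and shared regulation was not tested. Each sequence runs from 250 bases before to 50 bases after the RefSeq start site (GRCm38.p6), 5′ to 3′ on the gene's strand. Capitals mark exact matches on either strand. The motifs searched were the GC box, spelled GGGCGG, and the element known as the CCAAT box. The TATA box, searched as the letters TATAAA, and the E-box core, with the palindrome CACGTG, were included as well.
Lgmn promoter, chr12:102439679-102439978, minus strand: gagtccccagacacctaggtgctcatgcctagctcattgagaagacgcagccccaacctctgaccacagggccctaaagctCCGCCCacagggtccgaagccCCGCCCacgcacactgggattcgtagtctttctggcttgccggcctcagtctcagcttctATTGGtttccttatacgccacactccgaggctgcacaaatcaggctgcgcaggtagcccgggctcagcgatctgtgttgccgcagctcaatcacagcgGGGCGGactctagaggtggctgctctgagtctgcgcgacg
Tnfrsf12a promoter, chr17:23677400-23677699, minus strand: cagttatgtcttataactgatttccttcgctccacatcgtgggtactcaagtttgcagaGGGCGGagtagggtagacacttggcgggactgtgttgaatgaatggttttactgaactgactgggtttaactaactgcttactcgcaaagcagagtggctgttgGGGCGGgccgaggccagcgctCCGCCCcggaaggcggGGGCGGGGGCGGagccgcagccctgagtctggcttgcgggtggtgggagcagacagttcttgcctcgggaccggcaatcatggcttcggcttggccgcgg
Crim1 promoter, chr17:78199998-78200297, plus strand: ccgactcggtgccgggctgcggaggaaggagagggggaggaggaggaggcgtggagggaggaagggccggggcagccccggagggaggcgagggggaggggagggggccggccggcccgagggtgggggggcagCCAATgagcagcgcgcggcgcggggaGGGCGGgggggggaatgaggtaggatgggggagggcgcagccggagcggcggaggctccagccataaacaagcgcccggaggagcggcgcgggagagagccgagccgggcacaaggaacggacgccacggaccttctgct
Igsf3 promoter, chr3:101376875-101377174, plus strand: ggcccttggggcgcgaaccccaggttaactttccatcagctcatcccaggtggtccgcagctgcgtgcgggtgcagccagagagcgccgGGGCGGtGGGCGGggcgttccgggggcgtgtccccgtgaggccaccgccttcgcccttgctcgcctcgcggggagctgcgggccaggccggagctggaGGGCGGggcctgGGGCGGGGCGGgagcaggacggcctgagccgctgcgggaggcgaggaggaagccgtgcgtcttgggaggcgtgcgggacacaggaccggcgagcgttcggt
GC boxes occurred 3 times in the *Lgmn* window, 5 times in that of *Tnfrsf12a*, 1 time in that of *Crim1* and 5 times in that of *Igsf3*, with 1 pair in *Igsf3* overlapping. A GC box was present in 35.7% of 32851 mouse promoter windows of this length. CCAAT was present in the *Lgmn* and *Crim1* windows and in 37.4% of all windows. None of the 4 windows held TATAAA (13.6% of all) or CACGTG (7.15% of all). The *Crim1* and *Igsf3* windows were 76% and 75% G and C, the *Lgmn* and *Tnfrsf12a* windows 61.0% and 59.7%, and the median window 52.7%. The window of a further RefSeq start site of *Lgmn* is not shown. That window did hold TATAAA (1 match) and CACGTG (1 match), held no GC box or CCAAT, and was 48% G and C.

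The mRNA levels of the 6 genes spanned a wide range in the hypothalamus. Levels are given as CPM, counts scaled by library size and TMM factor. Per kilobase of gene length, *Lgmn* was highest at 71.3 CPM per kb (mean of 23 libraries), above 97.3% of the genes tested. *Crim1* followed at 16.6 CPM per kb, above 83.7% of genes. *Igsf3* at 2.98, *Dll1* at 2.59 and *Tnfrsf12a* at 2.15 CPM per kb lay near the middle of all genes, and *Eda2r* at 0.0812 CPM per kb lay above only 0.848% of them. *Lgmn* exceeded *Crim1*, *Crim1* exceeded *Igsf3* and *Tnfrsf12a* exceeded *Eda2r* in 23 of 23 libraries. The 3 middle genes were not cleanly ordered, since *Igsf3* exceeded *Dll1* in 17 of 23 libraries and *Dll1* exceeded *Tnfrsf12a* in 18 of 23. *Eda2r* rested on 3 to 23 counts per library, so counting error alone is large for it, whereas *Lgmn* had 1366 to 6171 counts, *Crim1* 963 to 3334, *Igsf3* 219 to 913, *Dll1* 99 to 407 and *Tnfrsf12a* 21 to 173.

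Total counts per library ranged from 8928182 to 34848437. Of 18 hypothalamic markers, 17 were detected, among them *Pomc*, *Agrp*, *Npy* and *Hcrt*, and *Kiss1* had 0 counts in all 23 libraries. Choroid plexus markers summed to 70.3 to 110 CPM in 21 libraries, to 3091 CPM in Control d14 replicate 5 and to 1355 CPM in ExpOF d14+3 replicate 4. Libraries also differed in how strongly long genes were represented. A length index was therefore calculated per library as the median log2 deviation of the genes above the upper quartile of length (6121 bases) minus that of the genes below the lower quartile (2193 bases). It ran from 0.014 to 0.18 in ExpOF d14 and from -0.41 to 0.14 in Control d14 (median -0.29), where replicate 1 alone was above 0. The RNA integrity number (RIN) was 9.6 to 10 in ExpOF d14 and 8 to 10 in Control d14. On d14+3 the RIN was lower in controls, at 7.2 to 9.9 (mean 8.62) against 8.8 to 10 in ExpOF mice (mean 9.43). The index there ran from -0.34 to 0.098 in controls and from -0.21 to 0.18 in ExpOF mice.

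**Figure D1:**
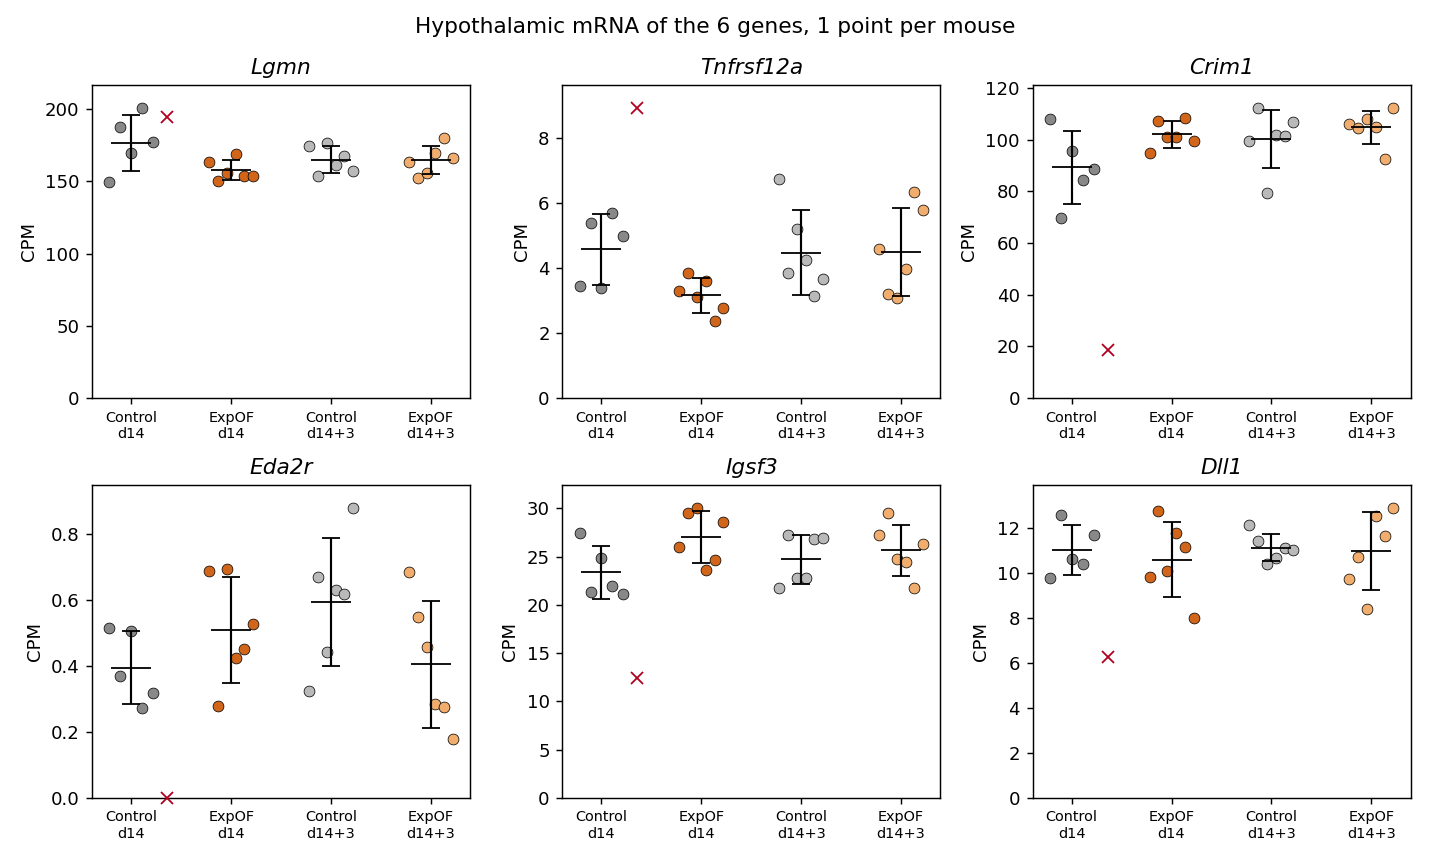
CPM (y axis, from 0) of each gene in every mouse of the 4 groups (x axis); bars give the mean and SD of the mice used, and the red cross is the left-out library, Control d14 replicate 4. The groups overlap for every gene, and the left-out library lies far below all other libraries for *Crim1* (18.4 CPM) and above them for *Tnfrsf12a* (8.91 CPM).

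To ask whether overfeeding altered these mRNAs at its peak, ExpOF d14 (n = 6) was compared with Control d14 (n = 5). *Lgmn*, the protease, was measured at 149, 169, 177, 188 and 201 CPM in the control mice and at 151 (lowest), 155 (median) and 169 (highest) CPM in the overfed mice. The control mice spread more widely: replicate 1 lay below every overfed mouse, and the other 4 lay at or above the highest overfed mouse. Overfed mice averaged 158 ± 6.93 CPM (SD, n = 6) against 177 ± 19.4 CPM in controls (SD, n = 5), which is a fold change of 0.892 (95% confidence interval 0.815 to 0.976). The log2 fold change was -0.17 ± 0.063 (SE), with an adjusted p-value of 0.141 by the edgeR quasi-likelihood test (unadjusted 0.0153) and a two-sided exact permutation p-value of 0.0563, where 0.00216 is the smallest this design allows. In tissue RNA of this kind, fewer cells that express a gene and less mRNA per cell cannot be told apart.

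The receptors differed in level and direction. *Tnfrsf12a* was at 3.37, 3.45, 4.97, 5.38 and 5.69 CPM in the controls and at 2.37 (lowest), 3.19 (median) and 3.83 (highest) CPM in the overfed mice. In 4 of 6 overfed mice it was below every control, and the other 2 lay among the lower controls. Its fold change was 0.698 (95% confidence interval 0.520 to 0.938), a log2 fold change of -0.52 ± 0.21 (SE) with an edgeR adjusted p-value of 0.144 and an exact permutation p-value of 0.0325. *Eda2r* was at 0.271, 0.316, 0.368, 0.503 and 0.513 CPM in the controls and at 0.278 (lowest), 0.489 (median) and 0.691 (highest) CPM in the overfed mice. It exceeded every control in 3 of 6 overfed mice, and the other 3 lay among the controls, on 4 to 23 counts per library. Its fold change of 1.36 had a confidence interval from 0.861 to 2.14 (edgeR adjusted p = 0.362, exact permutation p = 0.214).

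*Dll1*, the Notch ligand, was at 9.79, 10.4, 10.6, 11.7 and 12.6 CPM in the controls and at 8.01 (lowest), 10.6 (median) and 12.8 (highest) CPM in the overfed mice. The ranges nearly coincided, and the fold change was 0.960 (95% confidence interval 0.820 to 1.12, edgeR adjusted p = 0.739, exact permutation p = 0.630).

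The genes for the BMP-binding and tetraspanin-associated membrane proteins did not pass the test either. *Crim1* was at 69.6, 84.3, 88.6, 95.8 and 108 CPM in the controls and at 94.8 (lowest), 101 (median) and 109 (highest) CPM in the overfed mice. The highest control reached nearly the highest ExpOF value, and 1 of 6 overfed mice exceeded every control. Its fold change was 1.14 (95% confidence interval 1.01 to 1.29), a log2 fold change of 0.19 ± 0.087 (SE), with an edgeR adjusted p-value of 0.168 and an exact permutation p-value of 0.0628. *Igsf3* was at 21.1, 21.4, 22, 24.9 and 27.5 CPM in the controls and at 23.6 (lowest), 27.3 (median) and 30.1 (highest) CPM in the overfed mice. It exceeded every control in 3 of 6 overfed mice. Its fold change was 1.16 (95% confidence interval 1.02 to 1.32), a log2 fold change of 0.22 ± 0.090 (SE), with an edgeR adjusted p-value of 0.148 and an exact permutation p-value of 0.0519.

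On d14, therefore, edgeR called 0 of 6 genes at an adjusted p under 0.05, against 0.00527% of all genes tested (1 gene). DESeq2 also called 0 of 6, with no adjusted p for *Eda2r*, against 196 of 12729 genes. At an unadjusted p under 0.05, *Crim1* and *Igsf3* were higher, as were 13.1% of all genes, and *Lgmn* and *Tnfrsf12a* were lower, as were 13.6% of all genes. For 0 of 6 genes did the groups not overlap, against 2.5% of all genes. The median log2 fold change of all genes was -0.021.

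**Figure D2:**
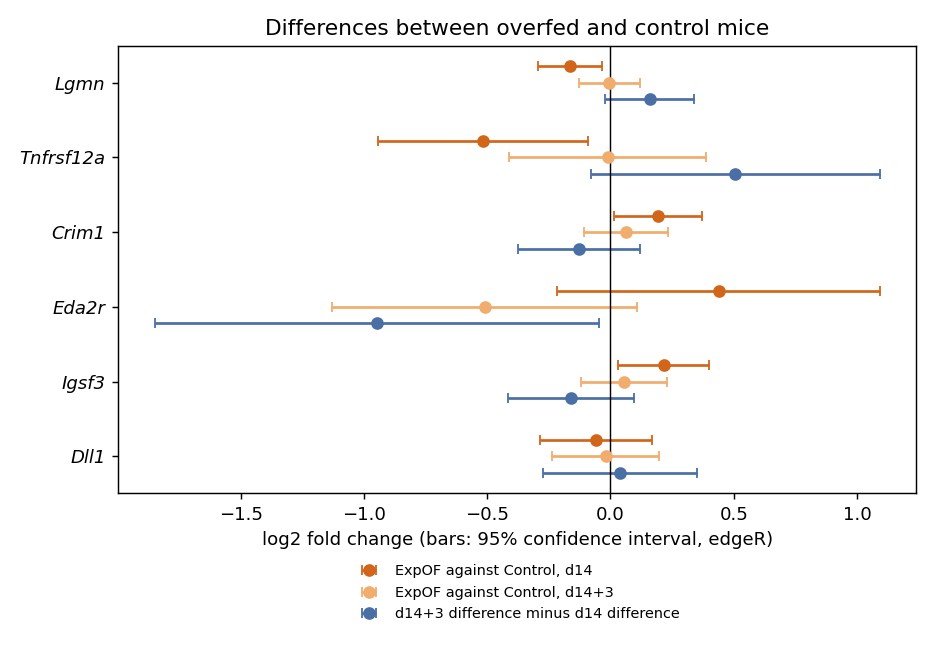
Log2 fold change of ExpOF against Control on d14 and on d14+3, and the difference between those days (x axis), for each gene (y axis), with 95% confidence intervals from edgeR. The d14 intervals of *Lgmn*, *Tnfrsf12a*, *Crim1* and *Igsf3* lie off 0, but no adjusted p-value was below 0.141.

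The d14 differences moved with single control mice. *Crim1* was at a log2 fold change of 0.11 without Control d14 replicate 2, against 0.19 with it, and *Lgmn* at -0.12 without replicate 5. In either analysis 0 of 6 genes were called by edgeR, against 1 of 19228 genes without replicate 2 and 1 of 19073 without replicate 5. Without Control d14 replicate 1, 4 of 6 genes were called by edgeR, at the same time as 2313 of 19206 genes (12%) were called higher and 1907 (9.93%) lower. *Lgmn* was then at a log2 fold change of -0.22 (adjusted p = 0.0216), *Tnfrsf12a* at -0.60 (0.0483), *Crim1* at 0.27 (0.0275) and *Igsf3* at 0.28 (0.0312). For 0 of 6 genes did the groups not overlap in that analysis, against 16.4% of all genes. Replicate 1 is the control mouse with the lowest *Lgmn* and the highest *Crim1*, *Eda2r* and *Igsf3*, and the only Control d14 library with a length index above 0. When a spline on gene length was taken out of each library, which was added once the values were known, 0 of 6 genes were called with or without replicate 1. With replicate 1 kept, 1 of 18992 genes was called. The spline had no term for group, and the length index differed between the d14 groups. It therefore also took out any overfeeding difference that ran with gene length, and the loss of calls cannot tell such a difference from a trend of the libraries. In the analysis without replicate 1, that correction left 3.29% of all genes called higher and 3.03% lower. The log2 fold changes in it were -0.11 for *Lgmn* (adjusted p = 0.142 by edgeR), -0.46 for *Tnfrsf12a* (0.121), 0.21 for *Crim1* (0.064) and 0.13 for *Igsf3* (0.229), so that *Crim1* lost its call at a value close to the 0.19 of the uncorrected analysis of 23 libraries. With the correction and all 23 libraries, they were -0.072 for *Lgmn*, -0.40 for *Tnfrsf12a*, 0.15 for *Crim1* and 0.11 for *Igsf3*. *Crim1* was then 1 of 6 genes higher at an unadjusted p under 0.05, against 9.92% of all genes, and *Tnfrsf12a* 1 of 6 lower, against 9.7%.

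**Figure D3:**
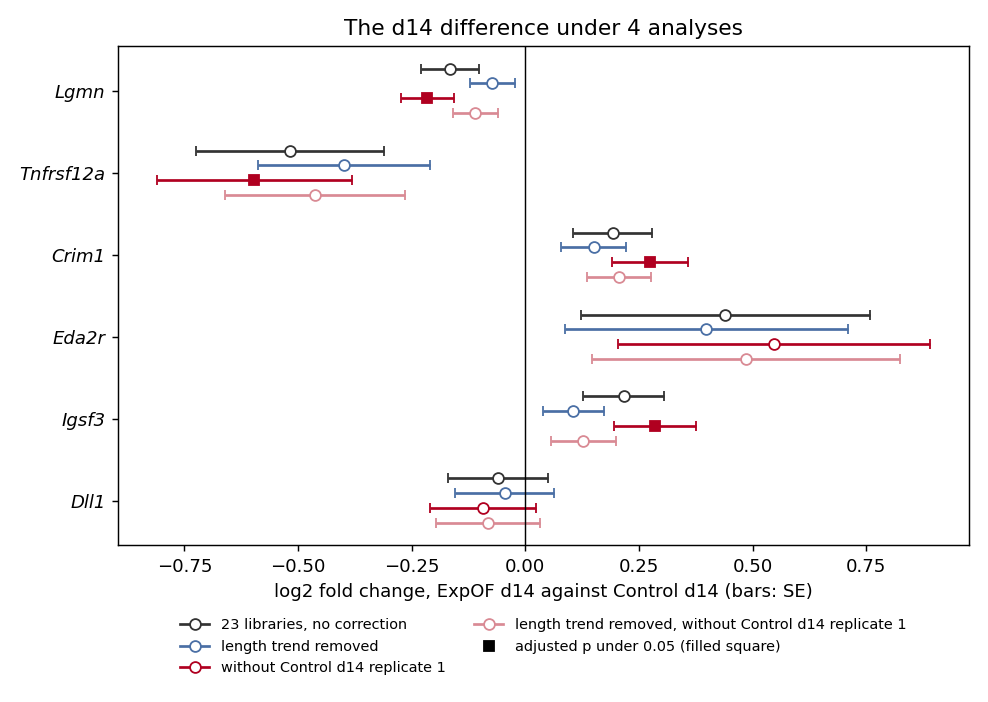
Log2 fold change of ExpOF d14 against Control d14 (x axis, bars are the SE) for each gene (y axis) under 4 analyses; filled squares have an adjusted p under 0.05. Calls appear only without Control d14 replicate 1 and without the length correction, and with the correction and all 23 libraries the *Lgmn* and *Igsf3* differences are -0.072 and 0.11. The correction also takes out any group difference that runs with gene length.

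Over all 23 mice, 3 of the genes tracked the length index of the library most closely. How many of all genes tracked it as closely was not counted. *Lgmn* was higher where long genes were less represented, with Pearson r = -0.89 and Spearman rho = -0.86 (permutation p = 1e-05 for each, the smallest 100000 permutations can give; adjusted over the 6 genes 2e-05 and 3e-05). *Crim1* followed it in the opposite direction, with r = 0.88 (permutation p = 1e-05, adjusted 2e-05) and rho = 0.69 (permutation p = 0.00054, adjusted 0.00108). *Igsf3*, with r = 0.83 and rho = 0.84 (permutation p = 1e-05 for each, adjusted 2e-05 and 3e-05), behaved like *Crim1*. Without the 2 libraries with the most extreme index, r remained -0.89, 0.82 and 0.83 for these 3 genes. Within the July cohort of mice (n = 12) it was -0.93, 0.94 and 0.83, and within the September cohort (n = 11) it was -0.92, 0.80 and 0.88.

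The relation was looser for the other genes. *Tnfrsf12a* had r = -0.68 (permutation p = 0.00041, adjusted 0.000615) and rho = -0.61 (permutation p = 0.00233, adjusted 0.0035), and without the 2 extreme libraries r was -0.65. *Eda2r* had r = 0.44 (permutation p = 0.0385, adjusted 0.0461) and rho = 0.51 (permutation p = 0.0148, adjusted 0.0178), with r = 0.48 without the 2 extreme libraries. Within cohorts its r was 0.15 in July and 0.85 in September, so the relation did not hold evenly. *Dll1* had r = -0.34 (permutation p = 0.111, adjusted 0.111) and rho = -0.42 (permutation p = 0.046, adjusted 0.046). *Igsf3* (8479 bases) and *Tnfrsf12a* (1932 bases) belong to the long and the short genes that define the index. *Lgmn* (2323 bases), *Dll1* (4219 bases), *Eda2r* (5891 bases) and *Crim1* (5995 bases) belong to neither. Of these, *Lgmn*, *Eda2r* and *Crim1* lie close to the cutoffs of 2193 and 6121 bases. What sets the index of a library was not tested.

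**Figure D4:**
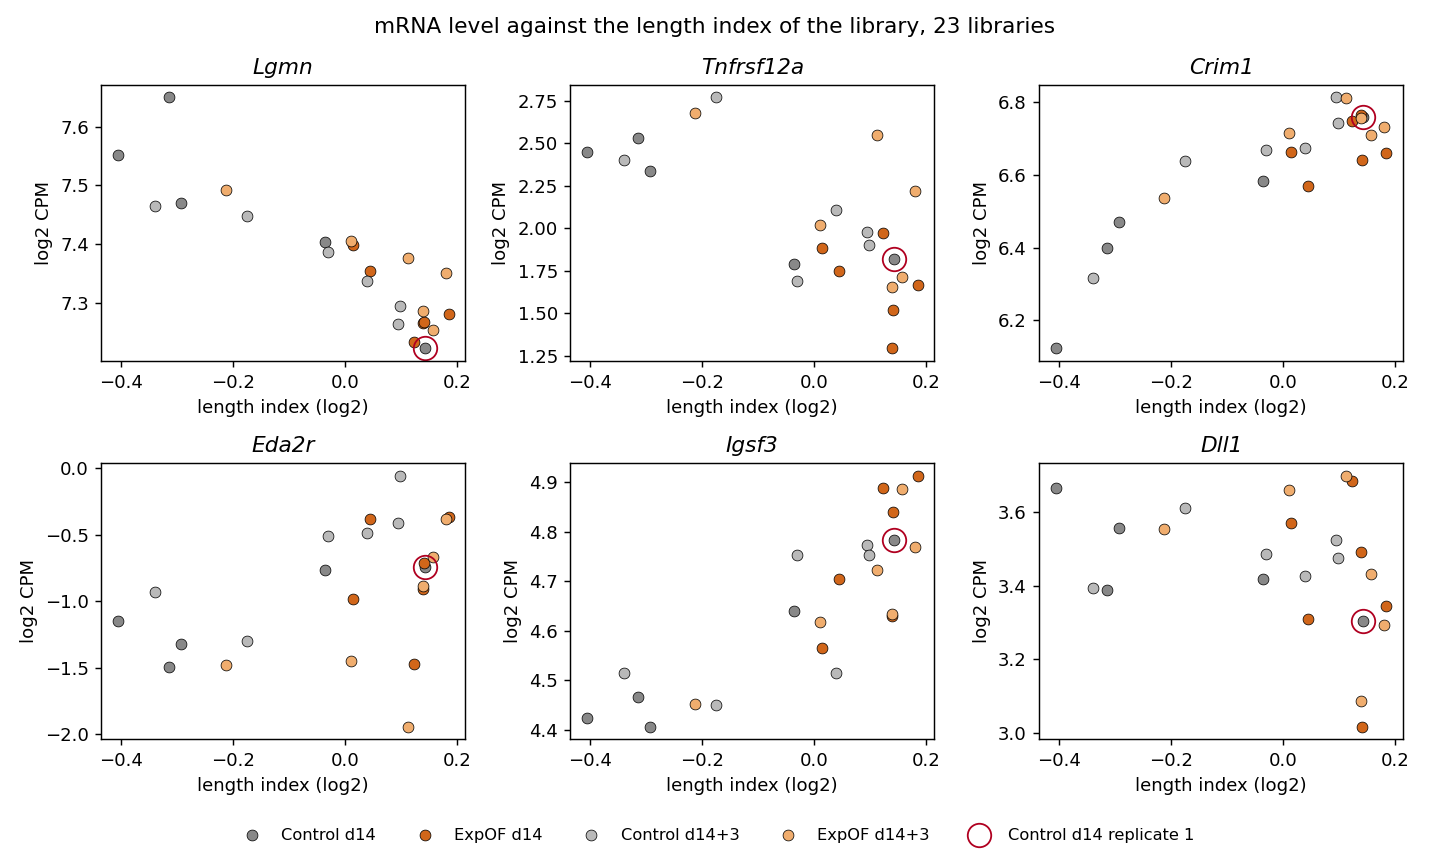
Log2 CPM of each gene (y axis) against the length index of its library (x axis, log2) for 23 libraries, colored by group, with Control d14 replicate 1 circled. *Lgmn* falls along the index (r = -0.89) and *Crim1* and *Igsf3* rise along it (r = 0.88 and 0.83), while *Dll1* scatters (r = -0.34).

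To ask whether any difference remained in the recovery phase, ExpOF d14+3 was compared with Control d14+3 (n = 6 each). *Lgmn* ran from 153 to 180 CPM in the overfed mice (median 165) and from 154 to 177 CPM in the controls (median 164). The means of 165 ± 9.80 and 165 ± 9.36 CPM (SD) gave a fold change of 0.996 with a confidence interval from 0.914 to 1.09. *Tnfrsf12a* ran from 3.06 to 6.33 CPM (median 4.27) and from 3.14 to 6.73 CPM (median 4.04), a fold change of 0.992 (0.752 to 1.31). For both genes the ranges lay almost on top of each other.

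*Eda2r* ran from 0.177 to 0.683 CPM in the overfed mice (median 0.370) and from 0.323 to 0.878 CPM in the controls (median 0.624). The 3 lowest overfed mice lay below every control, and the log2 fold change was -0.51 (95% confidence interval -1.13 to 0.11), or 0.702-fold, with an edgeR adjusted p-value of 0.756 and an exact permutation p-value of 0.106. *Dll1* ran from 8.41 to 12.9 CPM (median 11.2) and from 10.4 to 12.1 CPM (median 11.1), a fold change of 0.986 (0.849 to 1.15). *Crim1* ran from 92.7 to 112 CPM (median 106) and from 79.6 to 112 CPM (median 102), a fold change of 1.04 (0.929 to 1.18). *Igsf3* ran from 21.8 to 29.5 CPM (median 25.5) and from 21.8 to 27.3 CPM (median 24.8), a fold change of 1.04 (0.919 to 1.17).

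On d14+3, edgeR called 0 of 6 genes and 0% of all genes, with adjusted p-values between 0.756 and 0.993. DESeq2 called 0 of 6, again with no adjusted p for *Eda2r*, against 42 of 17135 genes. At an unadjusted p under 0.05, 0 of 6 genes were higher or lower, against 2.91% and 4.2% of all genes, and for 0 of 6 did the groups not overlap, against 0.421%. The median log2 fold change of all genes was 0.007.

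The difference between the d14 and the d14+3 effect was tested as an interaction. It was largest for *Eda2r*, the gene with the fewest counts, at a log2 difference of -0.95 ± 0.44 (SE), since *Eda2r* was at 1.36 times the control level on d14 and at 0.702 of it on d14+3. Its unadjusted p-value was 0.0399 and its edgeR adjusted p-value 0.903. *Tnfrsf12a* had an interaction of 0.51 ± 0.28 and *Lgmn* one of 0.16 ± 0.088 (edgeR adjusted p = 0.903 for both). In all, 0 of 6 genes and 0% of all genes were called by edgeR, and DESeq2 called 0 of 6, against 0 of 18976 genes. At an unadjusted p under 0.05, 1 of 6 was lower, against 1.64% of all genes, and 0 of 6 were higher, against 2.78%.

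Between the days, *Tnfrsf12a* in ExpOF mice averaged 3.16 ± 0.536 CPM on d14 and 4.49 ± 1.34 CPM on d14+3 (n = 6 each, log2 fold change 0.48 ± 0.20, unadjusted p = 0.0258, edgeR adjusted p = 0.512, exact permutation p = 0.0476). It was 1 of 6 genes higher at an unadjusted p under 0.05, against 5.39% of all genes, with 0 of 6 lower, against 2.4%. In control mice *Tnfrsf12a* was at 4.57 ± 1.09 and 4.47 ± 1.31 CPM on those days. No gene had an unadjusted p under 0.05 in control mice, against 6.81% of all genes higher and 5.93% lower. *Eda2r* came nearest there, at 0.394 ± 0.110 and 0.593 ± 0.192 CPM (log2 fold change 0.60 ± 0.31, edgeR adjusted p = 0.439). By edgeR, 0 of 6 were called in ExpOF mice (0% of all genes) and 0 of 6 in control mice (1.15% of all genes). DESeq2 called 0 of 6 in either, against 190 of 18976 genes in ExpOF mice and 531 of 16399 in control mice. These comparisons share the d14 groups with those above. Markers of the dissected region also moved between the days in control mice. Of 17 hypothalamic markers 11 were lower on d14+3 and 0 higher at an unadjusted p under 0.05, with 3 called by edgeR. In overfed mice on d14, 8 were lower and 1 higher at that threshold, against 13.6% and 13.1% of all genes, with 1 called. The list includes *Npy* and *Agrp*, which the paper reports as lower after overfeeding. Its d14 counts therefore mix genes reported to respond to overfeeding with the region dissected. The 12 markers of neighbouring regions, none of them at 0 throughout, summed to 145 to 250 CPM in Control d14 and 237 to 346 CPM in Control d14+3, and 3 of 10 tested were called. The part of the dissection in the values of the 6 genes was not tested.

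Both cohorts gave differences of the same direction on d14. *Lgmn* was at a log2 fold change of -0.19 in the July mice (3 against 3) and -0.14 in the September mice (3 against 2), *Tnfrsf12a* at -0.50 and -0.54, *Crim1* at 0.29 and 0.061, and *Igsf3* at 0.26 and 0.15. No gene was called within either cohort. *Crim1* differed most between them, with an SE of 0.13 in July and 0.11 in September. The September controls included Control d14 replicate 1, which had the highest *Crim1* of the Control d14 mice used (108 CPM). The difference between cohorts was not tested.

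Among 25 lysosomal proteases and legumain inhibitors, 24 were tested and 0 were called on d14. Their median log2 fold change was -0.15, against -0.021 for all genes. At an unadjusted p under 0.05, 9 were lower and 0 higher, against 13.6% and 13.1% of all genes. Cystatin B (*Cstb*, -0.38, edgeR adjusted p = 0.135) and the cholesterol carrier *Npc2* (-0.25, adjusted p = 0.135) had the smallest p-values. The substrates that legumain helps to mature were at -0.15 for *Ctsb*, -0.24 for *Ctsd* and -0.13 for *Ctsl* (edgeR adjusted p = 0.139, 0.151 and 0.224). Its inhibitors cystatin C (*Cst3*) and cystatin E/M (*Cst6*) were at -0.30 and -0.54 (adjusted p = 0.191 and 0.144). Without Control d14 replicate 1, 8 of the 24 were called lower, against 9.93% of all genes, and with the length correction 7 were lower at an unadjusted p under 0.05, against 9.7% of all genes. At d14+3 their median was -0.0021, and 1 gene was lower at an unadjusted p under 0.05, against 4.2% of all genes. It was *Cstb* (-0.34, edgeR adjusted p = 0.505), and *Ctso* was next at 0.11 (adjusted p = 0.713). Microglia, which express *Lgmn* strongly, were followed with 18 markers, none of them at 0, that summed to 402 to 457 CPM in ExpOF d14 and 408 to 564 CPM in Control d14. On d14, 2 of these markers were higher and 3 lower at an unadjusted p under 0.05, against 13.1% and 13.6% of all genes. The top microglial sum and the top *Lgmn* value were both in Control d14 replicate 5, and without it the *Lgmn* difference was -0.12. In ExpOF d14 the top sum was in replicate 3 (457 CPM), with *Lgmn* at 155 CPM. The top *Lgmn* value of that group was in replicate 4 (169 CPM), with a sum of 454 CPM. The part of microglia in the *Lgmn* values was not tested.

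The TWEAK and NF-kB list (19 genes tested, 0 called) had a median of -0.096 on d14. At an unadjusted p under 0.05, 2 genes were higher and 2 lower, against 13.1% and 13.6% of all genes. TWEAK itself (*Tnfsf12*) was at a log2 fold change of -0.24 (edgeR adjusted p = 0.183), the NF-kB subunit gene *Relb* at -0.41 (0.137) and the IkB kinase gene *Chuk* at 0.25 (0.156). In the recovery phase the median was -0.0062, *Tnfsf12* was at -0.19 (edgeR adjusted p = 0.755), and the smallest p-values were those of *Nfkbie* (-0.41, adjusted p = 0.590) and *Chuk* (0.23, adjusted p = 0.677). Of 21 other genes of the receptor superfamily, 19 were tested, 0 were called, and the d14 median was -0.12. At an unadjusted p under 0.05, 1 was higher and 3 lower, against 13.1% and 13.6% of all genes. The death receptor *Tnfrsf10b* at -0.64 (edgeR adjusted p = 0.135) and the lymphotoxin receptor *Ltbr* at -0.30 (0.141) led the list. At d14+3 the median was 0.052, and *Cd27* (0.71, edgeR adjusted p = 0.768) and *Tnfrsf21* (0.071, adjusted p = 0.768) had the smallest p-values.

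Around *Eda2r*, the ectodysplasin list (8 tested, 0 called) had a median of 0.063 on d14. At an unadjusted p under 0.05, 1 gene was higher and 1 lower, against 13.1% and 13.6% of all genes. The ligand *Eda* was at 0.13 (edgeR adjusted p = 0.438) and the sister receptor *Edar* at -0.39 (0.427), and the adaptors *Traf6* (0.26, adjusted p = 0.138) and *Tab1* (-0.17, adjusted p = 0.169) had the smallest p-values. The d14+3 median was 0.036, led by *Traf6* (0.10) and *Map3k7* (0.056), with edgeR adjusted p-values of 0.791 and 0.816. Of 14 genes of p53 and its targets, 0 were called on d14, with a median of -0.037. At an unadjusted p under 0.05, 3 were higher and 4 lower, against 13.1% and 13.6% of all genes. *Zmat3* (0.17, edgeR adjusted p = 0.135) and *Ccng1* (0.19, adjusted p = 0.138) came first. The d14+3 median was -0.036, and *Trp53* (-0.11) and *Ccng1* (0.093) had edgeR adjusted p-values of 0.768 and 0.774.

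Around *Dll1*, 38 Notch pathway genes were tested and 0 called. The d14 median was 0.011, with 5 higher and 6 lower at an unadjusted p under 0.05, against 13.1% and 13.6% of all genes. The other ligands *Dll4* and *Jag1* were at log2 fold changes of -0.23 and 0.25 (edgeR adjusted p = 0.340 and 0.141), the receptors *Notch1*, *Notch2* and *Notch3* at 0.19, 0.11 and 0.064 (adjusted p = 0.371, 0.494 and 0.644). The target genes *Hes1*, *Hes5* and *Hey1* were at -0.27, 0.0030 and -0.05 (adjusted p = 0.232, 0.991 and 0.663). The Notch inhibitor *Numb* (0.17) and the target *Heyl* (-0.33) had the smallest p-values, with edgeR adjusted p = 0.135 for both. On d14+3 the median was -0.033, and *Hes5* (-0.33, edgeR adjusted p = 0.610) and *Notch3* (-0.18, adjusted p = 0.688) came first.

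Around *Crim1*, 35 BMP pathway genes were tested and 0 called. The d14 median was 0.039, with 7 higher and 4 lower at an unadjusted p under 0.05, against 13.1% and 13.6% of all genes. The ligands *Bmp4*, *Bmp6* and *Bmp7* were at log2 fold changes of -0.011, -0.46 and -0.19 (edgeR adjusted p = 0.973, 0.149 and 0.204). The target *Id2* (-0.26) and the antagonist *Sostdc1* (-1.60) had the smallest p-values, with edgeR adjusted p = 0.135 for both. *Sostdc1* is also expressed in choroid plexus, whose markers summed to 3091 CPM in Control d14 replicate 5, and their part in its value was not tested. On d14+3 the median was -0.014, and the antagonist *Kcp* (-0.18, edgeR adjusted p = 0.741) and *Bmp2* (-0.17, adjusted p = 0.760) came first. The 10 neuron markers, none of them at 0, summed to 5635 to 5984 CPM in ExpOF d14 and 4928 to 5690 CPM in Control d14. Of these 10 neuron markers, 4 were higher at an unadjusted p under 0.05, against 13.1% of all genes. Their part in the *Crim1* values was not tested.

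Around *Igsf3*, 9 of 10 EWI and tetraspanin genes were tested and 0 called. On d14, 7 were lower and 0 higher at an unadjusted p under 0.05, against 13.6% and 13.1% of all genes. Their median was -0.17, whereas *Igsf3* itself was at 0.22. The tetraspanins *Cd9* (-0.25) and *Cd63* (-0.37) led the list, with edgeR adjusted p = 0.135 for both. The EWI genes *Ptgfrn* and *Igsf8* were at 0.033 and -0.26 (adjusted p = 0.817 and 0.167), and the IGSF3 partner *Tspan7* at -0.08 (adjusted p = 0.293). Without Control d14 replicate 1, 5 of the 9 were called lower, against 9.93% of all genes, and with the length correction 5 were lower at an unadjusted p under 0.05, against 9.7% of all genes. On d14+3 the median was -0.088, and *Cd9* (-0.13, edgeR adjusted p = 0.706) and *Cd151* (-0.13, adjusted p = 0.756) came first.

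DESeq2 called 0 genes of these 8 lists on d14 except *Cd9* and *Zmat3*, against 196 of 12729 genes. On d14+3 it called 0 of them, against 42 of 17135 genes. Without Control d14 replicate 1, edgeR called 3 higher and 1 lower in the TWEAK and NF-kB list, 1 higher and 0 lower in the ectodysplasin list, and 3 higher and 3 lower in the p53 list. It called 5 higher and 4 lower in the Notch list, 7 higher and 2 lower in the BMP list, and 0 higher and 2 lower among the other receptor genes. In that analysis 12% of all genes were called higher and 9.93% lower. With the length correction as well, the calls numbered 4 in the lysosomal list, 3 in the Notch list, 2 in the BMP list, 1 each in the p53, tetraspanin and other receptor lists, and 0 in the rest, with 3.29% of all genes called higher and 3.03% lower.

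For each gene, the genes whose log2 CPM followed it most closely over the 23 libraries were picked among those with a mean of at least 50 counts. *Lgmn* was followed by *Bsg* (Pearson r = 0.96) and *Clu* (r = 0.93), and *Crim1* by *Gabrb2* (r = 0.96) and *Sgip1* (r = 0.95). *Igsf3* was followed by *Sec16a* and *Ice1* (r = 0.91 for both), and *Tnfrsf12a* by *Ostf1* and *Mpi* (r = 0.90 for both). The sparsely counted *Eda2r* reached r = 0.77 with *Tmem87b* and *Polr3f*. *Dll1* reached r = 0.71 with *Ighmbp2* and r = 0.70 with *AI849053*, and r was 0.53 and 0.52 without the 2 libraries farthest from the median of *Dll1*. These correlations describe libraries that share a length trend, and each is among the highest of 14172 genes compared (14173 for *Eda2r*).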

How the data were processed

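Hypothalamic poly-A RNA was sequenced from stranded libraries of 24 mice. The authors aligned reads to mm10 with STAR, counted them per gene with featureCounts 1.6.4 and deposited raw counts without normalization, beside gene lengths and positions. Whether counting used strand is not given in the sources used here. Symbols came from GENCODE vM21, and 55144 genes received one.

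The tests ran in edgeR 4.0.16 (R 4.3.3). Low genes were dropped by filterByExpr (count 10, total 15), library sizes were scaled by TMM, and 1 robust quasi-likelihood model of 4 groups was fitted to 23 libraries. P-values were adjusted by Benjamini-Hochberg over 18992 genes (threshold 0.05). CPM used TMM factors of the 23 libraries, those of the left-out library a normalization of all 24, and log2 CPM added a prior count of 2. Two-sided exact permutation of log2 CPM served for single genes. No libraries matched within sampling noise. The tests were tried on simulated data.

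The members and gene lists were chosen with earlier results of these data known. The rule for naming genes was the 6 members, 22 fixed partners, in each list and day the 2 genes with the smallest p, and the 2 genes most similar to each member. Alternatives were DESeq2 1.42.0, other size factors and filters, all 24 libraries, 2 groups alone, single cohorts, covariates, a replicate block and libraries left out. Offsets from a length spline (5 degrees of freedom) were fitted per library with no term for group and added after the data were seen. Samples were grouped by their labels, and p-values measure the spread between mice.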

Additional observations from a re-analysis of the deposited data

Results flagged for a closer look

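*Crim1* stood apart in single mice of both d14+3 groups. In Control d14+3, replicate 3 was at 79.6 CPM with the next mouse at 99.4 CPM, and in ExpOF d14+3, replicate 5 was at 92.7 CPM with the next at 105 CPM. Each was the lowest of 6. On log2 CPM, the gap of each to its neighbor exceeded Dixon's 95% critical value (0.647 and 0.630 of the group's range in log2 CPM). The CPM values themselves were not put to this test, so the flag holds for the log2 scale only. These libraries had the lowest length index of their groups, at -0.34 and -0.21. Of 24 groups examined for the 6 genes, 2 stood out in this way, and chance alone gives about 1 in 20.

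The left-out library, Control d14 replicate 4, held *Tnfrsf12a* at 8.91 CPM, above the 3.37 to 5.69 CPM of the 5 control mice used. In the same library *Lgmn* was at 194 CPM, *Crim1* at 18.4, *Igsf3* at 12.4 and *Dll1* at 6.25 CPM, and *Eda2r* had 0 counts of 10922271. Its length index was -1.38 and its labelled RIN 9.8. With all 24 libraries in the edgeR fit, 0 of 6 genes were called on d14, against 1 of 18767 genes. *Tnfrsf12a* was then at a log2 fold change of -0.70 (adjusted p = 0.0634).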

How the results depend on the processing

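The number of genes called, 0 of 6 in each of the 5 comparisons, and the order of levels were recomputed 79 times over the alternatives. The result was the same in 78, and in 1 the count for d14 was 4, without Control d14 replicate 1. With that library kept, edgeR called at most 3 of all genes in any d14 analysis, and 0 in any interaction fit. A count of 0 of 6 was nearly fixed in advance there, so its repetition says little about these genes. Over the libraries left out in turn the d14 count ran from 0 to 4. The fit with a replicate block gave 0 of 6 in each comparison, against 1 of 18992 genes on d14, 33 between days in control mice and 0 in the other comparisons. The replicate numbers did not pair the mice (correlations of -0.21 to 0.22 between same-numbered mice). The strict filter removed *Eda2r*, and DESeq2 gave it no adjusted p on d14 or on d14+3.

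On d14, 137 of 143 recomputed log2 fold changes kept their direction and side of the threshold. *Dll1* turned to 0.047 with all 24 libraries and ran from -0.12 to 0.0099 with libraries left out. On d14+3, 16 of 143 turned, all from values near 0. September mice alone gave 0.060 for *Lgmn* and -0.051 for *Crim1*, and the length correction gave 0.034 for *Lgmn* and 0.029 for *Tnfrsf12a*. With libraries left out *Lgmn* ran from -0.031 to 0.019, *Tnfrsf12a* from -0.13 to 0.15 and *Dll1* from -0.068 to 0.045. The cause was not tested. Genes called on d14 over the whole table numbered 1 by edgeR, 196 by DESeq2 and 4220 without Control d14 replicate 1 (1214 with the length correction as well). On d14+3 they numbered 0 by edgeR, 42 by DESeq2 and 26 with RIN as a covariate. Between days they numbered 218 in controls (531 by DESeq2, 33 with the replicate block) and 0 in ExpOF mice (190 by DESeq2, 78 with cohort and extraction round). Depth limits *Eda2r* most.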
